A study of Homo sapiens with 24 samples.

Results

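The effect of a propionibacterial culture supernatant (SN) in combination with TRAIL was compared with that of the acids it contains (C3/C2) in combination with TRAIL, in HT29 cells, an established human colon adenocarcinoma line. TRAIL is a ligand of the tumour necrosis factor superfamily that binds death receptors and starts the extrinsic pathway of apoptosis. Propionate and acetate are the short-chain fatty acids that Propionibacterium freudenreichii, a dairy bacterium, releases as it ferments, and such acids act on colon cells as fuels, as inhibitors of histone deacetylases and through their effect on mitochondria. The comparison asks which genes respond differently to the whole supernatant than to propionate and acetate supplied at the amounts the diluted supernatant holds. Members were all arrays labelled with either co-treatment, that is 8 of the 24 arrays in the series, 4 for TRAIL+SN and 4 for TRAIL+C3/C2. Cells of both groups received 100 ng/ml TRAIL with 2 µg/ml anti-Flag antibody for 6 h, together with diluted culture supernatant or with 30 mM propionate and 15 mM acetate. The other groups, with 4 arrays each, were untreated cells (NT) and cells given C3/C2, SN or TRAIL alone. Each RNA was labelled with Cy3 and hybridised alone to an Agilent whole human genome array. HT29 is 1 tumour line, so both groups are cultures of the same line.

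All 8 arrays lay on 1 slide with 1 scan time. TRAIL+C3/C2 took row 1 of this slide and TRAIL+SN row 2, so the row and the treatment cannot be told apart. The 75th percentile of intensity lay between 453 and 546 over the 8 arrays, and 50.3% to 53.8% of probes were well above background on an array. Across genes, which are not independent replicates, arrays of the same group correlated with r of 0.993 to 0.996, and arrays of different groups with r of 0.983 to 0.988. The first principal component held 50.6% of the variance and separated both groups, and the second, with 17.5%, separated replicates 1 and 2 from replicates 3 and 4 in either group. All 10 markers of colon epithelium, EPCAM, CDH1, KRT8, KRT18, KRT20, CDX1, CDX2, VIL1, CEACAM5 and LGALS4, were well above background on each of the 8 arrays. Of 16 markers of leukocytes, fibroblasts and endothelium, 8 were tested, and 5 of the 6 fibroblast markers, all but COL1A1, were not. The summed linear level, relative to the 75th percentile, was 1041 to 1065 with TRAIL+C3/C2 and 997 to 1027 with TRAIL+SN for the epithelial markers. It was 3.52 to 4.57 and 3.92 to 5.31 for 4 of 6 leukocyte markers, 0.361 to 0.411 and 0.244 to 0.335 for 3 of 4 endothelial markers, and 0.329 to 0.440 and 0.627 to 1.08 for COL1A1. Their part in the results was not tested, and in bulk RNA fewer cells of a type and less RNA per cell cannot be told apart.

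Of 20703 genes tested, 202 (0.976%) were called higher with TRAIL+SN than with TRAIL+C3/C2 and 529 (2.56%) lower, where a call required a 2-fold difference and an adjusted p of 0.05 or less in limma. Genes with a large rise encode enzymes of the aryl hydrocarbon receptor response (CYP1A1, CYP1B1), proteins of the amino acid and stress response (CHAC1, FGF21, DDIT3, ATF3, ASNS, SLC1A4), type I keratins (KRT17, KRT14) and the membrane-anchored semaphorin SEMA7A. Among genes with a symbol, those with a large fall include the cytokine CSF3, the chemokine CXCL10, the ubiquitin ligase subunit FBXO2, the linker histone HIST1H1A and the calcium-binding protein CALB1, of which all but FBXO2 were not well above background on any TRAIL+SN array. Among the genes called, 193 of 202 higher and 476 of 529 lower had no overlap between the 4 arrays of one group and the 4 of the other. Among all 20703 genes, 3116 and 4057 had none. Calls and overlap rest on the same 8 arrays, so this count is no separate support for the calls. The named genes with the largest differences were also chosen to have no overlap. Levels are given throughout as log2 intensity over the array's 75th percentile, and differences as TRAIL+SN minus TRAIL+C3/C2 on that scale. On this scale the median difference over all genes was -0.06. The balance of the calls depended on the scaling: 363 genes were higher and 348 lower with the array median, which is the scaling of the authors' table, 311 and 432 after quantile normalization, and 405 and 309 with the spike-in controls. The higher genes made up 27.6% of the calls with the 75th percentile, 51.1% with the array median, 41.9% after quantile normalization and 56.7% with the spike-in controls. With normexp background correction 70 genes were higher and 83 lower, 45.8% of them higher. Among the lower genes, 157 were not well above background on any TRAIL+SN array, and 42 of the higher genes were not well above background on any TRAIL+C3/C2 array.

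**Figure D1:**
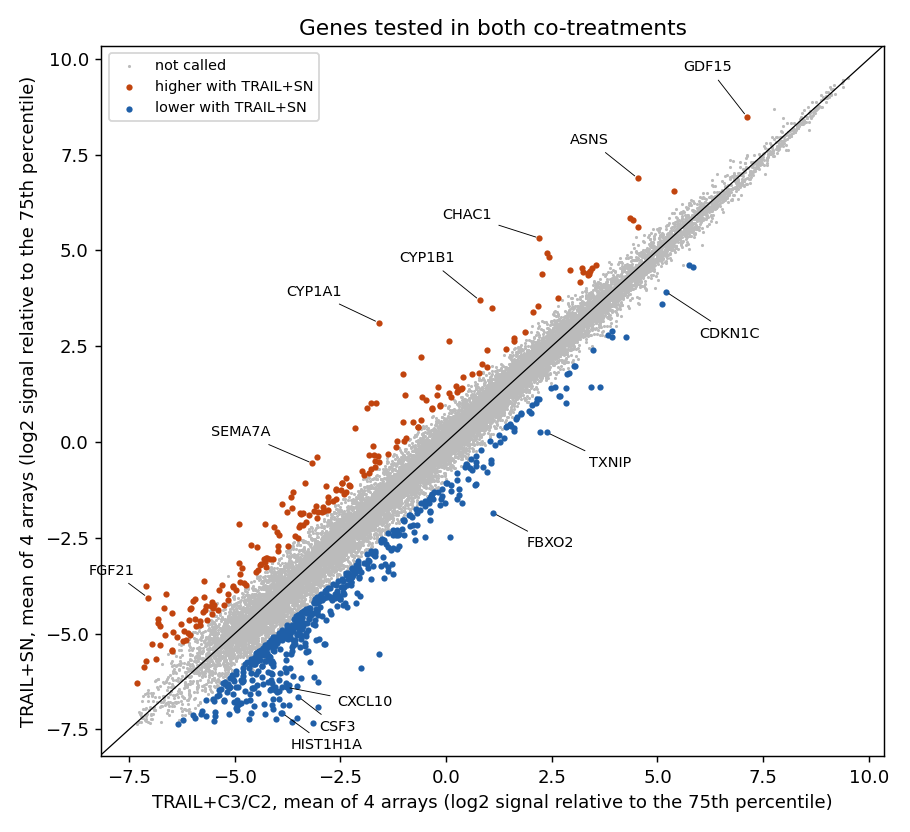
Mean level of each gene tested on the 4 TRAIL+C3/C2 arrays (x axis) and on the 4 TRAIL+SN arrays (y axis), both as log2 intensity over the array's 75th percentile; the line marks equal levels, red points are the 202 genes called higher and blue points the 529 called lower. CYP1A1 lies farthest above the line among the genes labelled, and many of the blue points lie at the dim end of the range.

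The aryl hydrocarbon receptor is a transcription factor that binds planar aromatic ligands, among them indoles and other compounds made by bacteria. With its partner ARNT it binds xenobiotic response elements and raises genes of xenobiotic metabolism. Of 13 genes of this pathway tested, 5 were higher with TRAIL+SN and 0 lower, against 0.976% and 2.56% of all genes tested. CYP1A1, a cytochrome P450 that oxidises aromatic compounds and is the best known target of the receptor, had levels of -1.81, -1.94, -1.31 and -1.30 on the TRAIL+C3/C2 arrays and 3.06, 3.06, 3.15 and 3.19 on the TRAIL+SN arrays. No array of one group came near the other. The difference was 4.71 (standard error 0.25, adjusted p = 2.34e-11), a 26.1-fold rise, measured by a probe at chr15:75012562-75012621 on hg19. CYP1B1, a related cytochrome P450, measured by a probe at chr2:38295444-38295503 on hg19, had levels of 0.69, 0.71, 0.88 and 0.88 with TRAIL+C3/C2 and 3.55, 3.50, 3.92 and 3.82 with TRAIL+SN. It was thus higher on every TRAIL+SN array, by 2.91 (7.51-fold, adjusted p = 9.64e-12). On arrays of other slides, mean CYP1B1 was 2.09 in NT and 1.76 with TRAIL alone, between the levels of both co-treatments, while mean CYP1A1 was -4.01 in NT and -4.16 with TRAIL alone, below both.

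The rest of this pathway moved less. TIPARP, an ADP-ribosyltransferase that the receptor induces and that limits its activity, rose by 1.06 (adjusted p = 4.53e-09), CYP1A2, the neighbour of CYP1A1 on chromosome 15, by 1.26 (adjusted p = 0.00022; 0.47 and not called with normexp) and the amino acid transporter SLC7A5 by 1.06 (adjusted p = 3.93e-09). SLC7A5 stood just below the 2-fold limit without TRAIL+SN replicate 1, at a difference of 0.9997, and at 0.93 in replicates 3 and 4 alone, while TIPARP was at 0.98 in replicates 1 and 2 alone. The receptor itself did not pass the test: AHR had levels of 2.80 to 2.98 with TRAIL+C3/C2 and 2.86 to 3.07 with TRAIL+SN, overlapping ranges. AHRR, its repressor, differed by 0.59 (adjusted p = 0.00206), short of a 2-fold change although no TRAIL+C3/C2 array reached the lowest TRAIL+SN array. NQO1 and ALDH3A1, which respond to the receptor and to oxidative stress, differed by -0.06 and 0.02 and did not pass the test.

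Upstream sequences were searched for GCGTG, the core of the xenobiotic response element, on both strands of the 250 bases before each annotated start (RefSeq, GRCh38.p14). This core stood in 32.2% of 34943 such windows, so it is common. A gene can have several windows, so a share of windows is not a share of genes. The core was chosen because it is known from genes of this pathway. A sequence was found for 4 of the 5 genes called, all but CYP1B1, and 3 of them, CYP1A1, TIPARP and SLC7A5, held the core in at least 1 window. Those of CYP1A1 and TIPARP are shown because CYP1A1 had the largest rise of all named genes and TIPARP is a known target of the same receptor, and capitals mark the core or its reverse complement CACGC.
CYP1A1, chr15:74725529-74725778, minus strand: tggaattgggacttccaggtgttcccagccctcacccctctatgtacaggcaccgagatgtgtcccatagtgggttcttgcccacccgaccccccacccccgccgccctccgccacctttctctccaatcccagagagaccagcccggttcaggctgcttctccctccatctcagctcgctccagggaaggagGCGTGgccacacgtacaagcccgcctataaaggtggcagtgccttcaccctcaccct
TIPARP, chr3:156674340-156674589, plus strand: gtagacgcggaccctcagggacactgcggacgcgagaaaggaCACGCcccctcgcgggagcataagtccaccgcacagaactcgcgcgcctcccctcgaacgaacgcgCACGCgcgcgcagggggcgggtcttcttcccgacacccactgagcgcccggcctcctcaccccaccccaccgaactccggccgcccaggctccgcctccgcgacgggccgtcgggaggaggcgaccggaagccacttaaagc
The single core of CYP1A1 began at position -57 from its start, and the window of TIPARP held 2 cores. A match is a description of these letters and was not tested as a binding site.

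Genes of the integrated stress response gave more rises than any other of the 27 lists. In this response, lack of amino acids, endoplasmic reticulum stress or mitochondrial stress leads to phosphorylation of the initiation factor eIF2, translation of the transcription factor ATF4, and induction of genes for amino acid uptake and synthesis. Of 28 such genes tested, 12 were higher and 0 lower with TRAIL+SN, against 0.976% and 2.56% of all genes, and 21 passed an adjusted p of 0.05 in the higher direction without regard to fold. The median difference of the list was 0.75, against -0.06 over all genes. CHAC1, an enzyme that degrades glutathione, had levels of 2.09, 1.95, 2.38 and 2.41 with TRAIL+C3/C2 and 5.39, 5.29, 5.31 and 5.29 with TRAIL+SN. All TRAIL+SN arrays lay within a narrow band well above the others, a difference of 3.11 (standard error 0.35, adjusted p = 7.2e-07). ASNS, which makes asparagine, had levels of 4.36, 4.30, 4.73 and 4.73 against 6.86, 7.0, 6.85 and 6.82, again without overlap, a 5.12-fold rise (adjusted p = 7.06e-10; probe at chr7:97481461-97481520 on hg19).

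Transcription factors downstream of ATF4 rose in the same comparison. DDIT3 (CHOP), which acts downstream of ATF4, had levels of -0.09, -0.14, 0.22 and 0.30 with TRAIL+C3/C2 and 2.52, 2.50, 2.74 and 2.76 with TRAIL+SN, higher on every TRAIL+SN array by 2.56 (adjusted p = 1.79e-06). ATF3, a stress-induced repressor, rose by 2.56 as well (adjusted p = 1.94e-06), and 3 of its 4 probes were called higher, while the remaining one differed by 0.33 and was not called. ATF4 itself, which is controlled mainly at translation, differed by 0.38 (adjusted p = 0.0301). FGF21, a secreted metabolic hormone, was not well above background on any TRAIL+C3/C2 array, with levels of -7.06, -7.26, -6.78 and -7.14, and was so on all TRAIL+SN arrays, with levels of -4.12, -3.49, -4.19 and -4.42. It was at least 2.11-fold higher with TRAIL+SN (adjusted p = 1.33e-07), and with normexp the difference of FGF21 was 0.58 and was not called.

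Transporters and enzymes of amino acid supply were also among the genes higher with TRAIL+SN than with TRAIL+C3/C2. SLC7A11, the cystine importer that feeds glutathione synthesis, had levels of 2.00, 2.16, 2.44 and 2.48 against 4.38, 4.31, 4.41 and 4.45. The groups were apart by 2.12 (adjusted p = 1.92e-12). Mean SLC7A11 was 3.73 in NT and 4.14 with TRAIL alone, so that TRAIL+C3/C2 lay below both and TRAIL+SN slightly above both, although on different slides. SLC1A4, a neutral amino acid transporter outside the list, rose by 2.27 (4.82-fold, adjusted p = 5.01e-11). The other members called, beside SLC7A5, were JDP2, PSAT1, DDIT4, PPP1R15A and SLC3A2, with differences between 1.01 and 1.62, and these 5 and ATF4 were named after their values were seen. TRIB3 and SESN2, a pseudokinase and a stress-induced regulator of growth signalling, differed by 0.57 and 0.81 without reaching a 2-fold change. In the unfolded protein response of the endoplasmic reticulum, 1 of 15 genes was higher, against 0.976% of all genes. This was HERPUD1, which takes part in the degradation of misfolded proteins (difference 1.38, adjusted p = 2.03e-05). Of 25 targets of the oxidative stress factor NRF2, SLC7A11 was the only one called, against 0.976% of all genes called higher. The NRF2 list had a median of -0.04.

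The letters TGATGNAA, a form of the amino acid response element that ATF4 binds together with C/EBP factors, stood on either strand in 3.15% of the 34943 windows. This is again a share of windows and not of genes, and the letters were chosen because they are known from genes of this response. A sequence was found for 11 of the 12 genes called, all but SLC7A11, and 5 of them, ASNS, ATF3, CHAC1, FGF21 and JDP2, held these letters in at least 1 window. The windows of ASNS, CHAC1 and FGF21 are shown because these genes had large rises and belong to different branches of the response, with the match on either strand in capitals.
ASNS, chr7:97872409-97872658, minus strand: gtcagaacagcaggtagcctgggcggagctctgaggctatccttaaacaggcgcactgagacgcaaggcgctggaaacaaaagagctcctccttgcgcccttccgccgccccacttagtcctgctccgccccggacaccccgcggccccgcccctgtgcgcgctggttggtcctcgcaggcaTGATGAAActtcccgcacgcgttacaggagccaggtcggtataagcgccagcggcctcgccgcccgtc
CHAC1, chr15:40953221-40953470, plus strand: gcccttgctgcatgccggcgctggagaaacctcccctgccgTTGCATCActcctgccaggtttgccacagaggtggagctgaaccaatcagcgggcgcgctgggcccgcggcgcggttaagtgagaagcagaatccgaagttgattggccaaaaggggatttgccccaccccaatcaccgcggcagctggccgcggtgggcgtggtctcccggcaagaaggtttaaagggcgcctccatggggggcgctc
FGF21, chr19:48755274-48755523, plus strand: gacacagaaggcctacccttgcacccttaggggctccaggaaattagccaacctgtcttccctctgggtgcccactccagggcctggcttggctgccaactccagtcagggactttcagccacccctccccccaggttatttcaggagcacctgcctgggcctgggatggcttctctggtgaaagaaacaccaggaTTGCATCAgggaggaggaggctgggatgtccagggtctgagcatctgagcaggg
No match of the 2 motifs overlapped in these windows, and the matches were not tested as binding sites.

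**Figure D2:**
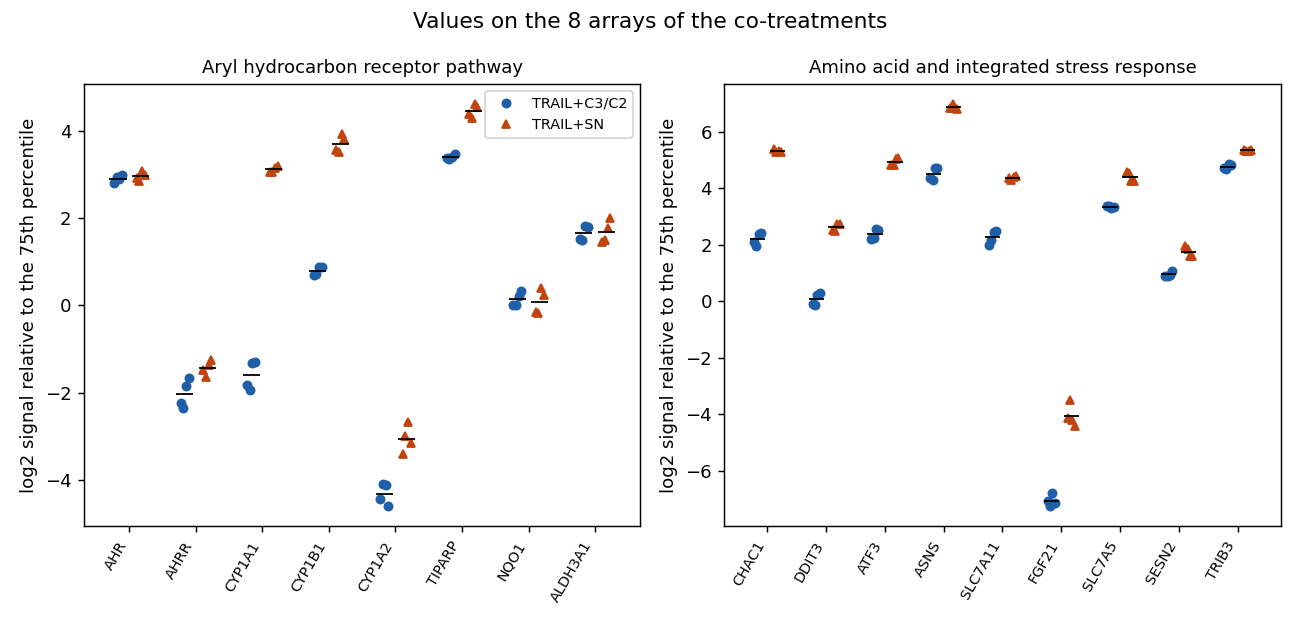
Levels on each of the 8 arrays (y axis, log2 intensity over the array's 75th percentile) for 8 genes of the aryl hydrocarbon receptor pathway (left) and 9 of the amino acid and integrated stress response (right); circles are TRAIL+C3/C2, triangles TRAIL+SN and bars the mean of 4 arrays. CYP1A1, CYP1B1, CHAC1, DDIT3, ATF3 and ASNS separate both groups by more than 2 units, while AHR, NQO1 and ALDH3A1 overlap.

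AREG and EREG, growth factors of the EGF family, which bind the EGF receptor and promote proliferation and repair of epithelium, rose with TRAIL+SN. Of 12 genes tested in a list of these ligands with their receptors and regulators, such as EGFR and LRIG1, 2 were called higher and 0 lower, against 0.976% and 2.56% of all genes. All 12 had a difference above 0, with a median of 0.48, and 10 were higher at an adjusted p of 0.05 without regard to fold, against 15.9% of all genes. AREG (amphiregulin) had levels of 4.35, 4.32, 4.33 and 4.41 with TRAIL+C3/C2 and 6.08, 5.96, 5.69 and 5.63 with TRAIL+SN, and EREG (epiregulin) 0.70, 0.97, 1.03 and 1.18 against 2.46, 2.34, 2.51 and 2.34. Neither gene overlapped between groups, and the rises were 2.8-fold and 2.71-fold (adjusted p = 5.09e-10 and 4.31e-09). HBEGF, another ligand of the same receptor, differed by 0.99 (adjusted p = 0.000293), just short of a 2-fold change. It passed that limit with the array median, at 1.14, in replicates 1 and 2 alone, at 1.12, and without TRAIL+C3/C2 replicate 3, TRAIL+C3/C2 replicate 4 or TRAIL+SN replicate 2, at 1.05 in each case.

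Among 32 immediate early genes and MAP kinase phosphatases, which respond within minutes to growth factors and stress, 4 were higher and 1 lower, against 0.976% and 2.56% of all genes, and their median difference was 0.53. EGR1, a zinc finger transcription factor, had levels of 1.87, 1.83, 2.52 and 2.46 with TRAIL+C3/C2 and 3.07, 3.14, 4.05 and 3.95 with TRAIL+SN. In both groups replicates 3 and 4 exceeded replicates 1 and 2, and the difference of 1.38 (adjusted p = 0.00247) was 1.25 in replicates 1 and 2 and 1.51 in replicates 3 and 4. FOSL1, a subunit of AP-1, rose by 1.06 (adjusted p = 3.69e-09; 0.99 with normexp), and NR4A2, an orphan nuclear receptor, fell by 1.25 (adjusted p = 7.54e-11). Of 19 genes of the TGF-beta family and its targets, 3 were higher, GDF15 and INHBE among them, against 0.976% of all genes. GDF15, a stress-induced secreted factor, rose by 1.38 from an already bright signal (adjusted p = 9.74e-06). INHBE, which encodes an inhibin subunit, was not well above background on any TRAIL+C3/C2 array and was at least 1.83-fold higher (adjusted p = 0.0021), a call lost with normexp (0.29) and in replicates 1 and 2 alone (adjusted p = 0.0714).

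KRT17 and KRT14, type I keratins of basal and injured epithelium, rose by 2.81 and 2.78 (adjusted p = 2.16e-12 and 1.44e-12), and the pseudogene KRT42P by 2.65 with its brightest probe, while its other probe differed by 0.26 (adjusted p = 0.268) and was not called. These genes belong to 1 family, and whether a probe bound more than 1 transcript was not tested. The rise can therefore not be assigned to a single gene with certainty. SEMA7A had levels of -2.84, -3.20, -3.44 and -3.16 with TRAIL+C3/C2 and -0.14, -0.33, -0.96 and -0.78 with TRAIL+SN, with all TRAIL+SN arrays above, a 6.09-fold rise (adjusted p = 4.17e-10).

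Cytokines and chemokines moved in both directions. Of 26 tested, 2 were higher and 5 lower with TRAIL+SN, against 0.976% and 2.56% of all genes, and the median difference was 0.08. CSF3, the growth factor of granulocytes, had levels of -3.64, -3.73, -3.56 and -3.04 with TRAIL+C3/C2 and -7.10, -7.18, -6.72 and -5.58 with TRAIL+SN, where no array was well above background. It was at least 3.15-fold lower with TRAIL+SN (adjusted p = 3.69e-09). CXCL10, a chemokine that attracts T cells (probe at chr4:76943520-76943579 on hg19), had levels of -3.92, -3.53, -3.59 and -4.06 against -6.82, -6.18, -6.74 and -5.86. Again no TRAIL+SN array was well above background, and the gene was at least 2.59-fold lower (adjusted p = 4.96e-05).

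On other slides, CXCL10 was well above background on all 4 arrays of TRAIL alone, with a mean of -3.53, and on 1 of 4 NT arrays. LTB, a membrane-bound cytokine of the TNF superfamily, had levels of -2.11, -2.3, -1.91 and -2.10 with TRAIL+C3/C2 and -4.17, -4.15, -3.82 and -3.67 with TRAIL+SN. It fell by 1.85 between the co-treatments (adjusted p = 4.75e-07), and both lay between the mean of -4.84 in NT and of 0.53 with TRAIL alone. CXCL6 and CXCL1, chemokines for neutrophils, fell by 1.79 and 1.11 (adjusted p = 0.00146 and 2.48e-06). CXCL1 had a difference of -0.96 with the array median and -0.73 within replicates 1 and 2 alone, below the 2-fold limit in both cases. With normexp the differences of the dimmer chemokines and cytokines were all under 2-fold, -0.75 for CSF3, -0.58 for CXCL10, -0.88 for LTB and -0.74 for CXCL6, and CXCL6 in replicates 1 and 2 alone had an adjusted p of 0.0923.

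CSF2 (GM-CSF) and IL1A, an alarmin of epithelial cells, were the cytokines called higher. CSF2 had levels of -3.28, -2.87, -3.24 and -3.14 against -1.43, -1.52, -2.16 and -2.13, a 2.51-fold rise without overlap (adjusted p = 2.45e-06), and IL1A rose by 1.19 (adjusted p = 8.88e-09). With normexp the difference was 0.79 for CSF2 and 0.41 for IL1A, and neither was called. IL8 (CXCL8) was not called with its brighter probe, with a difference of 0.88 (adjusted p = 0.0376), and was called with its dimmer probe, at 1.05 (adjusted p = 0.0305). TNF, a central inflammatory cytokine with an NT mean of -7.10, had levels of 1.37, 1.53, 1.40 and 1.36 with TRAIL+C3/C2 and 1.90, 1.90, 1.2 and 1.27 with TRAIL+SN. The ranges overlapped, and TNF did not pass the test (difference 0.15, adjusted p = 0.661). CCL20 differed by -0.50 (adjusted p = 0.0899). None of 18 NF-kB subunits and feedback inhibitors was called in limma at a 2-fold change, against 0.976% of all genes higher and 2.56% lower. Without regard to fold, 10 passed an adjusted p of 0.05 in the higher and 2 in the lower direction, against 15.9% and 21.7% of all genes. Of 34 interferon-inducible and antigen presentation genes, 1 was higher and 2 were lower, against 0.976% and 2.56% of all genes. The higher was the exonuclease ISG20 and the lower were MX1 and UBD. MX1, an antiviral GTPase, had a difference of -1.27 (adjusted p = 0.0222) and missed the threshold without TRAIL+C3/C2 replicate 1 or 2 or TRAIL+SN replicate 3 or 4, at adjusted p of 0.0592, 0.0534, 0.0704 and 0.0667. UBD, a ubiquitin-like protein, was dim, overlapped between groups (difference -1.28, adjusted p = 0.0383) and missed the threshold without TRAIL+C3/C2 replicate 1, 2 or 3 or TRAIL+SN replicate 1, 3 or 4, at adjusted p of 0.0588 to 0.112.

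**Figure D3:**
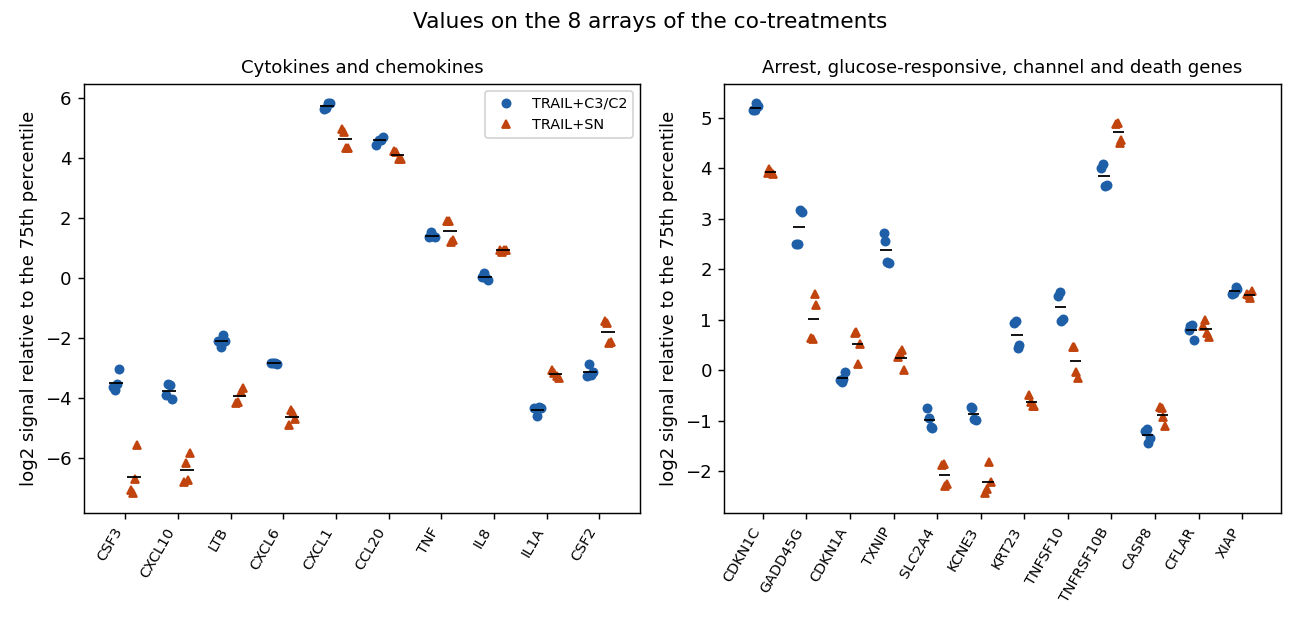
Levels on each of the 8 arrays (y axis, log2 intensity over the array's 75th percentile) for 10 cytokines and chemokines (left) and 12 genes of growth arrest, glucose response, ion transport and cell death (right); circles are TRAIL+C3/C2, triangles TRAIL+SN and bars the mean of 4 arrays. CSF3, CXCL10, LTB and CXCL6 lie lower and IL1A and CSF2 higher with TRAIL+SN, and CFLAR and XIAP overlap.

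Of 8 glucose-responsive genes 2 were lower with TRAIL+SN, TXNIP and SLC2A4, and of 15 genes of ion channels and acid sensing 2 were lower, against 2.56% of all genes. FBXO2, which recognises glycoproteins for degradation, had levels of 1.31, 1.09, 1.01 and 1.05 with TRAIL+C3/C2 and -1.6, -1.65, -2.12 and -2.04 with TRAIL+SN, a fall of 2.97 without overlap (adjusted p = 3.72e-07). Its mean was -5.84 in NT, below both co-treatments. TXNIP, the thioredoxin-binding protein that follows glucose supply, had levels of 2.73, 2.55, 2.14 and 2.12 against 0.26, 0.33, 0.40 and 0.01. It fell by 2.13 (adjusted p = 2.46e-07), and here the NT mean of 2.12 lay at the level of TRAIL+C3/C2.

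ARRDC4, a paralogue of TXNIP that also follows glucose, differed by -0.04 (adjusted p = 0.867) and did not pass the test. Of 17 markers of histone deacetylase inhibition, 0 were higher and 3 lower, KRT23, SYT11 and TXNIP, against 0.976% and 2.56% of all genes. The median of these markers was 0.10, with 9 of them above 0. The call of SYT11 leaned on TRAIL+SN replicate 1, at -6.27. The other TRAIL+SN arrays lay between -4.76 and -4.60, and the TRAIL+C3/C2 mean was -3.96. KRT23, a keratin that histone deacetylase inhibitors raise, fell by 1.34 (adjusted p = 2.49e-08), and SLC2A4, the insulin-responsive glucose transporter, by 1.08 (adjusted p = 1.59e-07). SLC2A4 had a difference of -0.93 with the array median and -0.81 with normexp, and was only just under a 2-fold change without TRAIL+C3/C2 replicate 1, at a difference of -0.9996. KCNE3, a subunit of a potassium channel that drives chloride secretion, had levels of -0.73, -0.75, -0.97 and -0.98 against -2.43, -2.35, -1.82 and -2.2, a fall of 1.34 (adjusted p = 2.11e-08), and both groups lay below the NT mean of 2.98. CD36, the fatty acid translocase, was not well above background on any TRAIL+SN array and was at least 2.00-fold lower (adjusted p = 1.99e-05; difference of -0.42 with normexp), whereas PLIN4, a protein of lipid droplets, rose by 1.19 (adjusted p = 1.24e-07).

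Few genes of cell death and survival were called between the co-treatments, near the 0.976% higher and 2.56% lower among all genes. None of 25 genes of the BCL2 family and mitochondrial pathway and none of 8 inhibitors of apoptosis was called at a 2-fold change in limma. Without regard to fold, 6 and 9 of the former passed an adjusted p of 0.05 in the higher and lower direction, and 4 and 1 of the latter, against 15.9% and 21.7% of all genes. CFLAR, which blocks caspase 8, had levels of 0.80, 0.88, 0.90 and 0.60 with TRAIL+C3/C2 and 0.87, 0.99, 0.74 and 0.66 with TRAIL+SN, ranges that overlap (difference 0.02, adjusted p = 0.909). XIAP, an inhibitor of caspases, differed by -0.08 and BCL2L1 by 0.01, and neither passed the test. These values are of the brightest probe of each gene. Of the dimmer CFLAR probes, 1 differed by 0.52 in limma (adjusted p = 0.00516), and the others by 0.29 and 0.04 (adjusted p = 0.0839 and 0.825). The dimmer XIAP probe differed by -0.25 (adjusted p = 0.00587). None of these probes reached a 2-fold change.

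TNFRSF10B, which encodes the death receptor TRAIL-R2 (DR5), had levels of 4.01, 4.07, 3.66 and 3.67 with TRAIL+C3/C2 and 4.88, 4.89, 4.51 and 4.55 with TRAIL+SN. All TRAIL+SN arrays lay above all TRAIL+C3/C2 arrays, by 0.85 (adjusted p = 1.51e-06), short of a 2-fold change at this scaling, and with the array median the difference was 1.01 and was called. TNFRSF10A, the other death receptor for TRAIL, differed by 0.25 (adjusted p = 0.0365). TNFSF10, the gene of TRAIL itself, was the only call among 15 genes of this list, against 2.56% of all genes called lower. It had levels of 1.48, 1.55, 0.98 and 1.01 against 0.47, 0.45, -0.04 and -0.16, and it fell by 1.07 (adjusted p = 1.26e-05). The ranges did not overlap, and within replicates 1 and 2 the fall was 1.05 and within replicates 3 and 4 it was 1.10. With the array median the difference was -0.92 and with normexp -0.99. It was also under 2-fold without TRAIL+C3/C2 replicate 1 or 2 or TRAIL+SN replicate 3 or 4, at -0.9986, -0.976, -0.999 and -0.961.

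Of 20 p53-linked and growth arrest genes, 1 was higher and 2 were lower with TRAIL+SN, against 0.976% and 2.56% of all genes. GDF15, given above, was the higher one, and CDKN1C and GADD45G were the lower ones. Without regard to fold, 5 genes of this list were higher and 7 lower, against 15.9% and 21.7% of all genes. CDKN1C (p57), an inhibitor of cyclin-dependent kinases, had levels of 5.15, 5.14, 5.29 and 5.22 with TRAIL+C3/C2 and 3.91, 3.98, 3.92 and 3.88 with TRAIL+SN, a fall of 1.28 with little spread (adjusted p = 6.41e-06). GADD45G, a stress sensor that slows the cell cycle, had levels of 2.49, 2.50, 3.17 and 3.14 against 0.63, 0.62, 1.51 and 1.29, lower on every TRAIL+SN array, by 1.81 in the mean (adjusted p = 9.43e-07). CDKN1A (p21) differed by 0.68 (adjusted p = 0.000131), short of a 2-fold change. Of 28 genes of mitosis, 1 was called, the kinesin KIF20A, which fell by 1.22 (adjusted p = 2.48e-06), against 2.56% of all genes called lower. Without regard to fold, 16 were lower and 1 higher, against 21.7% and 15.9% of all genes, and the median of the list was -0.39. None of 29 genes of DNA replication was called, with 8 lower and 2 higher at an adjusted p of 0.05, a lower share near that of all genes. Other lists without a call were 29 genes of cholesterol and fatty acid synthesis, 15 metallothioneins and zinc transporters, 18 heat shock proteins and 26 genes of intestinal differentiation. Without regard to fold, 6 genes of cholesterol and fatty acid synthesis were higher and 3 lower, and 4 genes of intestinal differentiation higher and 7 lower, against the same 15.9% and 21.7%. In the same count, 11 of the heat shock proteins were lower and 1 higher, and 8 metallothioneins and zinc transporters were higher and 1 lower.

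**Figure D4:**
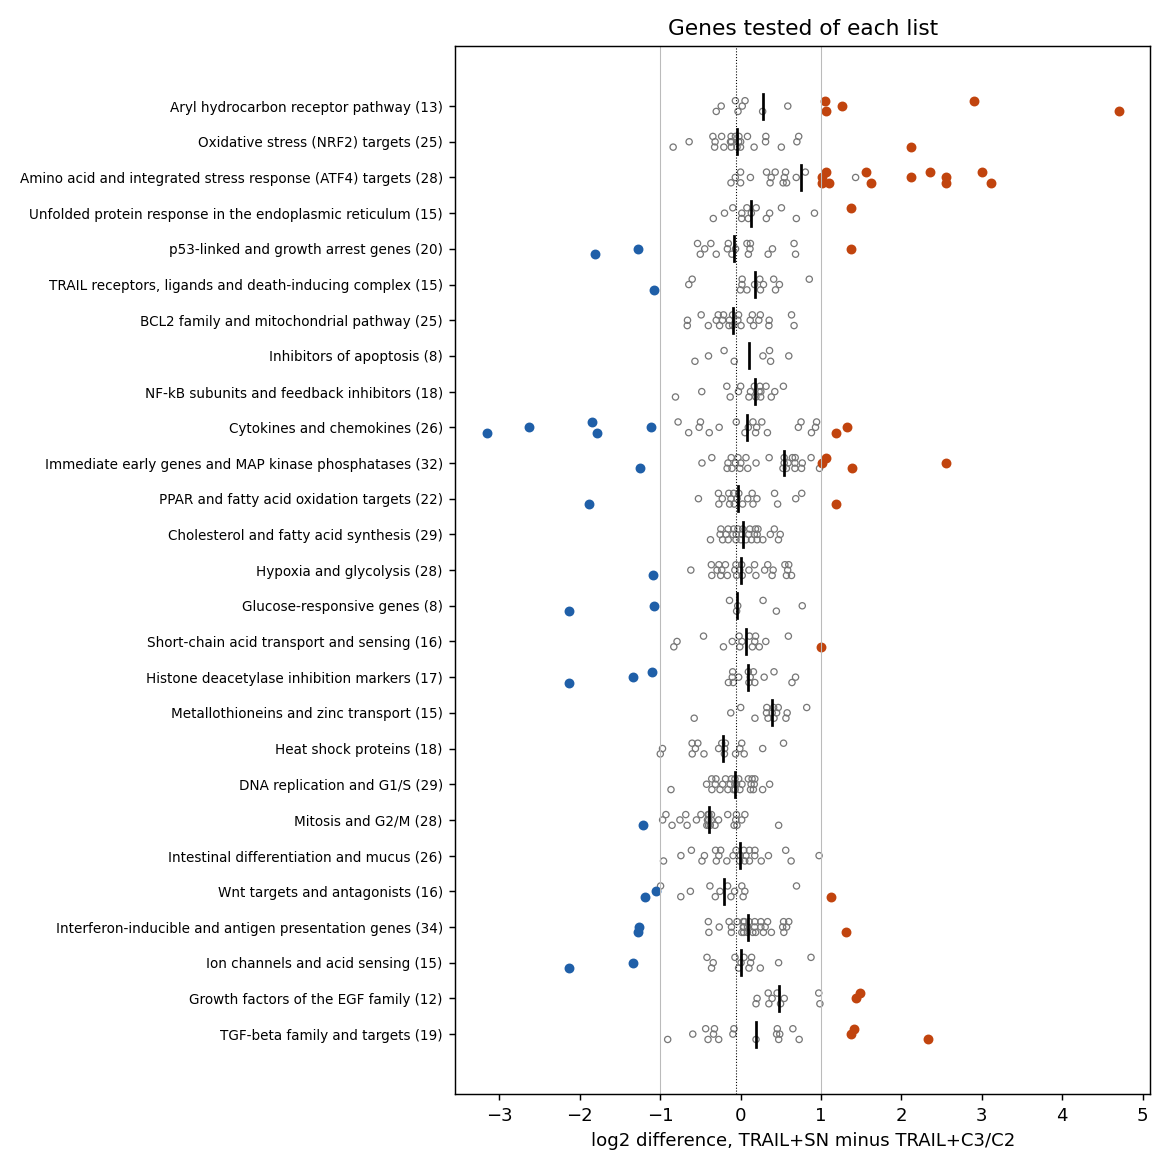
Difference TRAIL+SN minus TRAIL+C3/C2 (x axis, log2) of each gene tested in 27 lists, with the number tested in brackets; red and blue points were called higher and lower, open points were not called, black bars are list medians, the dotted line is the median of all genes and grey lines mark a 2-fold change. The list of the amino acid and integrated stress response has the highest median, 0.75, and the list of mitosis the lowest, -0.39.

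Where both groups lay relative to untreated cells was set out for the genes called, although the NT arrays are on other slides and are shared by both comparisons. Of the 202 higher genes, 143 were called above NT with TRAIL+SN and 78 with TRAIL+C3/C2, against 16.1% and 16.2% of all genes. TRAIL+C3/C2 lay below NT for 37 of them and TRAIL+SN for 11, against 7.94% and 10.1% of all genes. Of the 529 lower genes, TRAIL+C3/C2 was called above NT for 308 and below it for 30, and TRAIL+SN for 138 and 149. These genes were chosen by the difference between the co-treatments, which in part fixes these counts.

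The same difference was then measured without TRAIL, on the SN and C3/C2 arrays, which share no array with the co-treatments. SN and C3/C2 lay on different slides, so slide and treatment cannot be told apart there. Without TRAIL, 265 genes (1.28%) were called higher with SN and 914 (4.41%) lower. Of the 202 genes higher with TRAIL+SN, 132 had the same call without TRAIL, which is 65.3% of the 202 and 49.8% of the 265. Of the 529 lower genes, 242 had the same call, which is 45.7% of the 529 and 26.5% of the 914. The medians without TRAIL were 1.22 for the former and -0.95 for the latter, against -0.05 over all genes. CYP1A1 differed by 4.8 without TRAIL and 4.71 with it, CYP1B1 by 2.75 and 2.91, CHAC1 by 3.42 and 3.11, ASNS by 2.27 and 2.36, and TXNIP by -2.32 and -2.13, and none of these genes had a called interaction. CSF3 was well above background on all C3/C2 and TRAIL+C3/C2 arrays and on no SN or TRAIL+SN array. The medians of the amino acid and integrated stress response list were 1.06 without TRAIL and 0.75 with it, and those of the EGF family list 0.51 and 0.48.

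For 451 genes (2.18%) the difference between SN and C3/C2 was more positive with TRAIL than without it, and for 91 (0.44%) more negative, at the same thresholds on the interaction. These counts carry the difference between slides. Of the genes called between the co-treatments, 10 of the higher had a positive interaction, and 69 of the lower a negative and 2 a positive one. These genes were chosen by the difference with TRAIL, which is part of the interaction, so these signs are in part fixed by the choice. Of these 69, 18 carry a gene symbol, the others are unnamed transcripts, and 60 had their highest group mean with TRAIL+C3/C2. The choice by a lower TRAIL+SN level and a negative interaction favours a high TRAIL+C3/C2 mean, so the 60 is in part fixed too. Some of the 69 were very dim without TRAIL, where a difference is hardly measurable. XLOC_009473, for example, had a mean of -7.99 with C3/C2 and -7.69 with SN. GADD45G, well above background on every array of the 6 groups, differed by 0.20 without TRAIL and -1.81 with it. CXCL10 was not well above background on any C3/C2 or SN array, so its difference without TRAIL was not measurable.

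SPIB, FSTL3 and TNFRSF4, chosen after their values were seen, belong to the same set. SPIB, an ETS factor of lymphoid and intestinal cells, fell by 1.80 (adjusted p = 5.39e-06), FSTL3, which binds activin, by 1.16 (adjusted p = 1.02e-08), and TNFRSF4 (OX40), a costimulatory receptor, by 1.58 (adjusted p = 9.71e-08). HIST1H1A (H1-1) and ERO1LB, an oxidase of protein folding, were well above background on all TRAIL+C3/C2 arrays and on no TRAIL+SN array, and were at least 2.41-fold and 2.05-fold lower (adjusted p = 1.07e-07 and 9.16e-05). Both were kept for testing only because of the TRAIL+C3/C2 arrays, so their signal on all of these was fixed by the selection. With normexp the differences were -0.62 for HIST1H1A, -0.52 for ERO1LB and -0.81 for SPIB, and none was called. In the opposite direction, N4BP3, a partner of the NEDD4 ubiquitin ligase, had levels of -5.96, -6.35, -6.92 and -7.24 with TRAIL+C3/C2, none well above background, and of -3.74, -4.36, -4.40 and -3.38 with TRAIL+SN. This gene was kept for testing only because it was well above background on all TRAIL+SN arrays. It was at least 2.24-fold higher (adjusted p = 3.71e-07), with a difference of 0.47 with normexp, and FSTL3 was at -0.93 in replicates 1 and 2 alone and -0.96 with the spike-in controls.

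**Figure D5:**
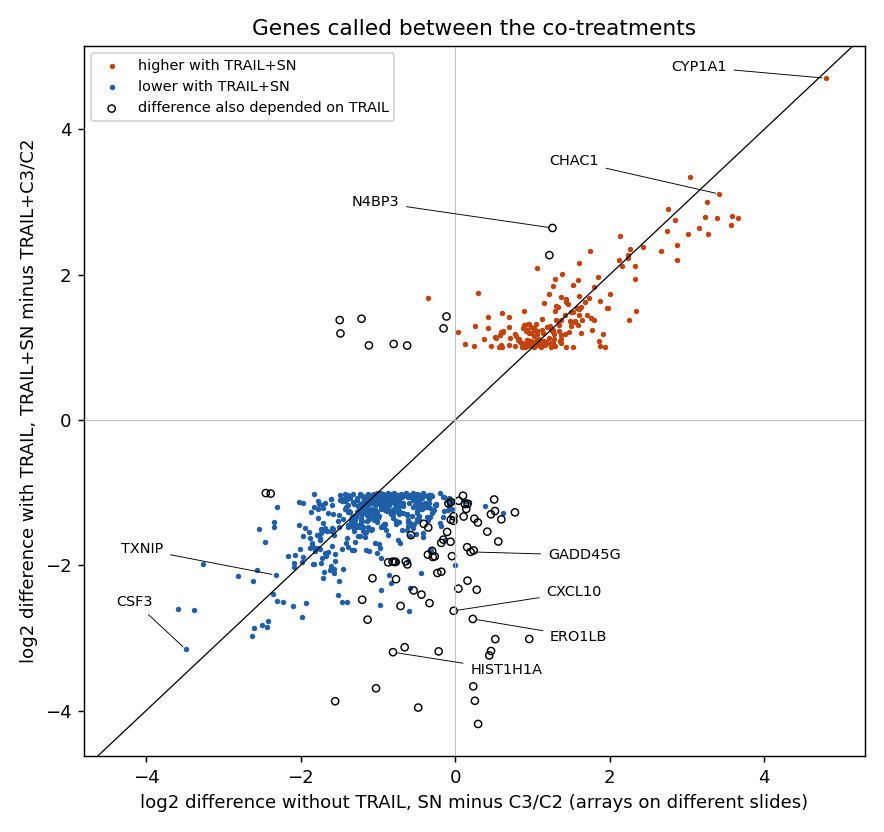
Difference with TRAIL (y axis, TRAIL+SN minus TRAIL+C3/C2, log2) against the difference without TRAIL (x axis, SN minus C3/C2, log2, arrays on different slides) for the genes called between the co-treatments; red points were higher and blue points lower with TRAIL+SN, black circles also had a called interaction and the line marks equal differences. CYP1A1 and CHAC1 lie near the line and GADD45G near 0 on the x axis, while the x values of CXCL10, ERO1LB, HIST1H1A and N4BP3 come from probes that were dim without TRAIL.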

How the data were processed

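Per the file headers, spot intensity was read by the authors in Agilent Feature Extraction 10.7.3.1, which detrends each array and subtracts a background from negative controls. The deposited intensity is not normalized between arrays, and dividing it by the array median gave the values the authors tabulated (relative difference up to 8.52e-06). Flag columns, 24 in number, were not used. Control and outlier spots were left out, replicate spots were averaged per probe, and the 75th percentile of the array was subtracted on the log2 scale. Probes well above background on all 4 arrays of a group were kept (27957 of 50599), and the brightest probe stood for a gene. RefSeq held the accession of 14621 of 20703 genes, 1966 under another symbol, and array names were kept. Group means of all 24 arrays were fitted with limma 3.58.1 (R 4.3.3; 18 residual degrees of freedom; Benjamini-Hochberg adjustment; median standard error 0.11), and the fit was tested on simulated data. The number of arrays limits the precision. Genes not well above background in a group are given as a bound against the lowest signal well above background. The study performed 2 independent experiments in duplicate, and the labels do not say which replicates are duplicates, so p-values measure the spread between these samples, which may be technical. The main fit treated the 4 samples of a group as independent, without pairing or block. Same-numbered samples deviated together (r = 0.250, 0.227, 0.219 and 0.212 across genes). Differently numbered samples within replicates 1 and 2 or within 3 and 4 did so about as well (0.171 to 0.229). The replicate number entered only as a block in alternative fits. Named genes are the 14 most raised and 14 most lowered called genes, without overlap between groups and without unnamed transcripts, 68 key genes of the lists, and up to 6 called members of each of 27 lists, and some genes that these rules name are not reported here. Members and lists were chosen with earlier results of these data known. Promoters were searched in Python 3.11.15 and figures drawn with matplotlib 3.10.9.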

Additional observations from a re-analysis of the deposited data

Results flagged for a closer look

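The interaction between TRAIL and the difference of SN and C3/C2 was called in limma for 8 of the genes named, where the arrays without TRAIL lie on different slides. The interaction was -2.97 for ERO1LB (adjusted p = 0.00452), -2.61 for CXCL10 (adjusted p = 0.00559), -2.39 for HIST1H1A (adjusted p = 0.00104), -2.04 for SPIB (adjusted p = 0.000404) and -2.01 for GADD45G (adjusted p = 0.000133). It was -1.28 for FSTL3 (adjusted p = 4.96e-06), -1.01 for TNFRSF4 (adjusted p = 0.00355) and 1.38 for N4BP3 (adjusted p = 0.025). ERO1LB, CXCL10 and HIST1H1A were not well above background on any TRAIL+SN array, nor was N4BP3 on any TRAIL+C3/C2 array. Without TRAIL, ERO1LB and CXCL10 were well above background on none of the 8 arrays of C3/C2 and SN, and HIST1H1A and N4BP3 on 1 each, so no difference without TRAIL could be measured for these 4 genes and the sizes of their interactions are not interpretable.

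Single arrays stood apart from the other 3 of their group by Dixon's test for 3 genes, with chance at about 1 in 20 of the 238 groups tested. ERV18-1 was at -5.76 in TRAIL+SN replicate 2 and between -6.66 and -6.55 in the others. TNFRSF10A was at -0.64 in TRAIL+SN replicate 4 and between -0.38 and -0.33 in the others. SYT11 was at -6.27 in TRAIL+SN replicate 1 and between -4.76 and -4.60 in the others. The call of SYT11 between the co-treatments leaned on that array.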

How the results depend on the processing

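The counts of calls depended on scaling and background. With the array median 363 genes were higher and 348 lower, after quantile normalization 311 were higher, with the spike-in controls 405 and 309, and with normexp 70 and 83. With normexp, 106 of the calls were shared without TRAIL in place of 374, and 223 interactions were called in place of 542. Without a minimum fold, the counts were 3298 higher, 4491 lower, 5075 shared without TRAIL and 2813 interactions. Leaving out 1 array at a time gave 183 to 231 higher, 506 to 566 lower, 355 to 392 shared and 494 to 588 interactions.

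With the replicate number as a block, 207 genes were higher and 536 lower, and the block changed no call of a named gene. Fits with replicates 1 and 2 against 3 and 4 as a block, or within either set alone, were chosen after seeing the data and moved no count of calls by over 1.5 times. No called difference of a named gene changed sign, but lower calls outnumbered higher ones with the 75th percentile and not with the array median or the spike-in controls, where the median difference of all genes was 0.09 and 0.13 in place of -0.06. Of the 68 named genes called, only 28 kept the same result under all alternatives. With normexp alone, 33 of 119 named genes gave a weaker result.

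Dim probes are a limit, since 124 genes were called although neither group was well above background on all of its arrays.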
